A study of Homo sapiens with 12 samples.

Results

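Transcripts of 8 genes that carry out the sensing of bacterial lipopolysaccharide and other microbial molecules were followed in 4 lung adenocarcinoma cell lines, attached and after loss of attachment. The 8 are the co-receptors LY96, CD14 and LBP, the toll-like receptors TLR2, TLR3, TLR4 and TLR5, and the adaptor MYD88, out of 60715 genes in the table. They were found by gene symbol, and the set was chosen by known function together with earlier results of these data, in which LY96 was among the largest rises after 1 day of detachment and CD14 was high at that time. Differences of these genes between day 1 and attached culture are therefore given as a description with no test. The lines are HCC4006, LC-2/ad, NCI-H2009 and NCI-H2228, all established human lines. As background, HCC4006 is known for an EGFR mutation that activates the receptor, and NCI-H2228 and LC-2/ad for gene fusions of ALK and of RET. Each line gave 3 libraries: untreated cells in ordinary attached culture, cells 1 day after trypsin and transfer to ultra-low attachment plates, and cells 7 days after it. All were grown in RPMI-1640 with fetal bovine serum, penicillin and streptomycin. The labels give the attached control no time and no treatment, so detachment cannot be told apart from trypsin, replating or time in culture. Each line and state has 1 library, and the 4 lines served as the replicates of a state.

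Toll-like receptors are membrane proteins that bind conserved microbial molecules outside the cell or in endosomes. TLR4 recognises lipopolysaccharide only as a complex with the small secreted protein MD-2, the product of LY96. LBP, a plasma protein made mainly by hepatocytes, takes lipopolysaccharide from bacterial membranes and hands it to CD14, which passes it to the TLR4 and MD-2 pair. TLR2 pairs with TLR1 or TLR6 to bind lipopeptides, TLR5 binds flagellin and TLR3 binds double-stranded RNA in endosomes. All of these receptors except TLR3 signal through MYD88 to NF-kappaB, while TLR3 uses the adaptor TRIF, which TLR4 also engages from endosomes. Airway epithelium is known to express several of them, with CD14 and TLR4 best known from monocytes and macrophages.

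Libraries held 31134420 to 41882024 estimated counts, so that 1 count stood for 0.0239 to 0.0321 CPM (counts divided by library size). Levels are given as TPM, an abundance scaled for both transcript length and library, and changes as log2 differences. Epithelial and lung adenocarcinoma markers (EPCAM, KRT7, KRT8, KRT18, KRT19, CDH1, NKX2-1, NAPSA) were all above 1 TPM in the 12 libraries, with summed levels of 3701 to 19813 TPM. Of 14 leukocyte markers, 9 stayed under 1 TPM in all 12 libraries, among them PTPRC, which codes for CD45, at no more than 0.834 TPM. TYROBP and MS4A1 were at 0 in all 12. The sum over the 14 markers was 21.0 to 50.9 TPM attached, 37.9 to 79.5 TPM at day 1 and 8.57 to 57.5 TPM at day 7. Most of it came from CD68 and CORO1A, which are not restricted to leukocytes. In bulk libraries fewer cells of a kind and less RNA per cell cannot be told apart. Because the labels name no separate cultures, no p-value measures the spread between repeat cultures of a line. With the cell line in the model, p-values for a difference between states rest on how that difference varies among the 4 lines. In the test among lines they rest on how the differences among lines vary between the states, which serve as its repeats.

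LY96 codes for MD-2, the lipopolysaccharide-binding subunit of the TLR4 receptor. It lies on the plus strand of chromosome 8 (ENSG00000154589.7, GRCh38 chr8:73991392-74029079). LY96 was higher in each of the 4 lines after 1 day without attachment, and between the attached and the day 1 level in 3 of them after 7 days. In attached culture LY96 stood at 10.6 TPM in NCI-H2009, 11.4 TPM in LC-2/ad, 35.01 TPM in NCI-H2228 and 31.2 TPM in HCC4006. At day 1 the same lines held 66.7, 25.0, 132 and 76.8 TPM. At day 7 they held 35.8, 26.8, 49.3 and 60.9 TPM. NCI-H2009, NCI-H2228 and HCC4006 peaked at day 1, whereas LC-2/ad kept about the same level at both detached times. The ranges of the states overlapped, since LC-2/ad at day 1 lay below attached NCI-H2228 and HCC4006. The mean was 22.04 ± 12.85 TPM (SD, n = 4) attached, 75.1 ± 44.0 TPM at day 1 and 43.2 ± 15.0 TPM at day 7.

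The day 1 difference of LY96 was 1.96 on the log2 scale with a standard error (SE) of 0.35. By line it was 2.97 in NCI-H2009, 2.08 in NCI-H2228, 1.38 in HCC4006 and 1.18 in LC-2/ad. In edgeR LY96 was the 1 member of the 6 tested among the called genes of this contrast, against 0.489% of all 17395 genes tested, and DESeq2 called LY96 and CD14, against 11% of genes. Nothing is read from these counts, because the contrast helped to choose the set. For the same reason the edgeR call of LY96, at an adjusted p of 0.0496, is no test of LY96. It was lost without each of the 4 lines (0.118 to 0.23) and in the other alternatives named at the end. At day 7 the difference from attached was 1.10 ± 0.34 (SE), higher in 4 of 4 lines, and did not pass (edgeR adjusted p = 0.179). From day 1 to day 7 LY96 differed by -0.86 ± 0.34, lower in 3 of 4 lines and 0.01 in LC-2/ad (edgeR adjusted p = 0.491). Both detached times were compared with the same 4 attached libraries, so the values of LY96 at day 1 and day 7 are not independent. The difference from day 1 to day 7 uses the day 1 libraries that helped to choose LY96, so nothing is read from it.

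**Figure D1:**
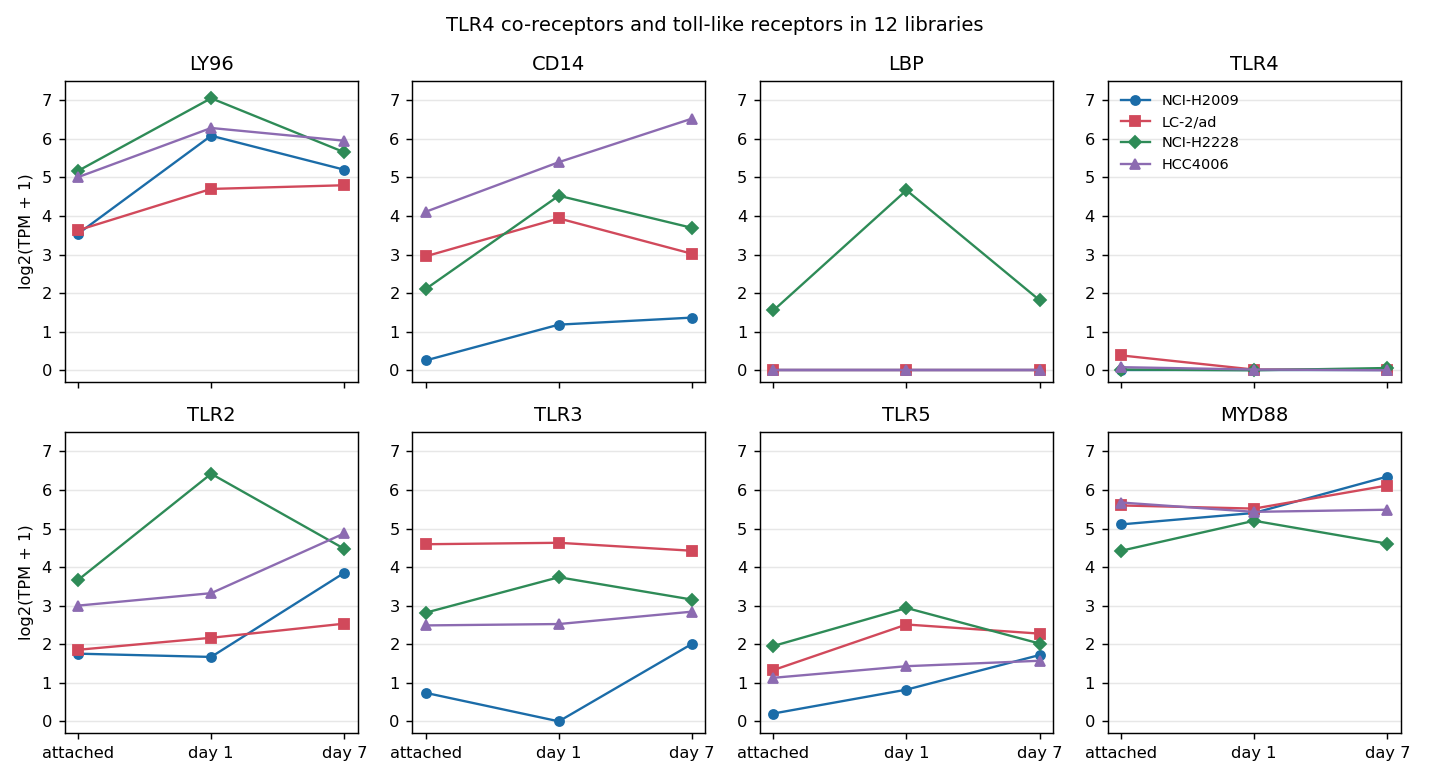
Level of each of the 8 genes in the 12 libraries, as log2(TPM + 1) on the vertical axis against the state on the horizontal axis, with 1 point per library and a line joining the 3 states of a cell line. LY96 and CD14 lie higher at day 1 than attached in the 4 lines, LBP is above 0 in NCI-H2228 alone, and TLR4 stays at or under 0.306 TPM throughout.

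CD14, the co-receptor that delivers lipopolysaccharide to MD-2, lies on the minus strand of chromosome 5 (ENSG00000170458.14, chr5:140631728-140633701). Its RefSeq promoter window in GRCh38.p14, from 250 bases before to 50 after the transcription start, is chr5:140633126-140633425 on the minus strand. It is shown because LY96 and CD14 were the members highest above attached at day 1. The windows of the 6 members found in the RefSeq table were searched on both strands for the AP-1 letters TGANTCA, the NF-kappaB-like letters GGNNNTTCC, the interferon response letters (GAAA, then 2 free bases, then GAAA), the E-box letters CACGTG and the GC box letters GGGCGG. Capitals mark matches other than the GC box. The 6 are CD14, TLR2, TLR3, TLR4, TLR5 and MYD88, without LBP and LY96.
CD14: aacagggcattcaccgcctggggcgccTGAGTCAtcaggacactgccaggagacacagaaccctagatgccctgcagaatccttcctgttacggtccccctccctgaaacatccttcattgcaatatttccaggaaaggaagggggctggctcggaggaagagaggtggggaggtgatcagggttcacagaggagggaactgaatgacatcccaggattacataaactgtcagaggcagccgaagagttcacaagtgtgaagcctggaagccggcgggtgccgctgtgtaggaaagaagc
The capitals are an AP-1 match on the plus sense of the gene, 223 to 217 bases before the start, and 7.73% of 34796 promoter windows hold those letters. The RefSeq start lies 526 bases inside the 5′ end of the deposited gene model. A match describes letters in the window and nothing about binding.

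In attached culture CD14 stood at 0.193 TPM in NCI-H2009, 6.75 TPM in LC-2/ad, 3.31 TPM in NCI-H2228 and 16.3 TPM in HCC4006. At day 1 the lines held 1.27, 14.3, 22.04 and 41.1 TPM in the same order. At day 7 they held 1.58, 7.12, 11.9 and 91.1 TPM. NCI-H2228 and LC-2/ad held most CD14 at day 1 and HCC4006 at day 7, with the top value of all libraries. In NCI-H2009 the order of the detached times depended on the scale, since the ratio of day 7 to day 1 was 1.24 in TPM and 0.882 in CPM. Means were 6.63 ± 6.96 TPM attached, 19.7 ± 16.7 TPM at day 1 and 27.9 ± 42.3 TPM at day 7 (SD, n = 4), and the ranges of the 3 states overlapped.

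The day 1 difference of CD14 was 1.97 on the log2 scale (SE 0.47), positive in 4 of 4 lines, with 2.86 in NCI-H2228, 2.62 in NCI-H2009, 1.42 in HCC4006 and 1.04 in LC-2/ad. At day 7 it was 1.67 ± 0.48, with 2.58 in HCC4006, 2.15 in NCI-H2009, 1.88 in NCI-H2228 and -0.02 in LC-2/ad (edgeR adjusted p = 0.162). The day 7 value did not pass. Between the detached times CD14 differed by -0.30 ± 0.46 (edgeR adjusted p = 0.84), in log2 CPM lower at day 7 in 3 of 4 lines and higher by 1.15 in HCC4006. Without the NCI-H2228 day 1 library this last difference was 0.039, with the sign reversed. Nothing is read from it, since the day 1 level of CD14 helped to choose the set. The summed leukocyte markers of NCI-H2009 were 21.0, 79.5 and 45.3 TPM attached, at day 1 and at day 7, in the order that LY96 took in that line, and CD68 alone made up 2.65, 59.3 and 29.4 TPM of them. In HCC4006 they were 50.9, 66.3 and 43.3 TPM, lowest at day 7 where CD14 was highest. In NCI-H2228 they were 27.1, 37.9 and 8.57 TPM, and in LC-2/ad 34.2, 38.2 and 57.5 TPM. The part of other cell types in the CD14 and LY96 values was not tested.

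LBP, the lipopolysaccharide-binding protein of plasma, was found in 1 line. The gene lies on the plus strand of chromosome 20 (ENSG00000129988.6, chr20:38346482-38377013). NCI-H2228 held 1.93 TPM attached, 24.4 TPM at day 1 and 2.52 TPM at day 7, from 89, 1081 and 113 estimated counts. The day 1 level of LBP was 12.7 times the attached one in that line, and the day 7 level 1.31 times. LBP was at 0 in the other 9 libraries, where 3 counts would have given 0.0544 to 0.0732 TPM. It did not pass the filter on low counts, so LBP has no test, and within NCI-H2228 there is no replicate of any state.

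TLR4 itself was nearly absent from these libraries. It lies on the plus strand of chromosome 9 (ENSG00000136869.16, chr9:117704175-117724735). The 12 libraries gave 85 TLR4 counts in all. NCI-H2009 had none in any state. LC-2/ad held 0.306 TPM attached from 49 counts, and 0.012 TPM from 4 counts at each detached time. HCC4006 held 0.057 TPM attached from 20 counts, 0.013 TPM at day 1 from 4 counts and none at day 7. NCI-H2228 held 1, 0 and 3 counts. TLR4 stood above 3 counts in 5 libraries and at 0 in 5, and it did not pass the filter on low counts. A further annotated gene, AL160272.2, spans the whole of TLR4 on the same strand at no more than 0.035 TPM, and reads of the pair may have been split.

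LY96 therefore stood far above TLR4 wherever TLR4 was detected. The smallest ratio of their TPM values was 37.2, in attached LC-2/ad, and in the other 6 libraries with any TLR4 count LY96 was at least 547 times higher. In LC-2/ad and HCC4006 TLR4 had its highest count attached, whereas LY96 had its lowest level there. In LC-2/ad the CPM of TLR4 was 0.0964 times the attached one at day 1 and 0.0850 times at day 7. Those libraries held 49 counts attached and 4 at each detached time, without a replicate, and the difference was not tested. Between libraries of 4 counts or fewer, changes of TLR4 were not measurable at this depth.

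TLR2, the lipopeptide receptor, lies on the plus strand of chromosome 4 (ENSG00000137462.9, chr4:153684070-153706260). Its RefSeq promoter window is chr4:153684030-153684329 on the plus strand, shown for a pair of NF-kappaB-like matches in the receptor with the highest single level.
TLR2: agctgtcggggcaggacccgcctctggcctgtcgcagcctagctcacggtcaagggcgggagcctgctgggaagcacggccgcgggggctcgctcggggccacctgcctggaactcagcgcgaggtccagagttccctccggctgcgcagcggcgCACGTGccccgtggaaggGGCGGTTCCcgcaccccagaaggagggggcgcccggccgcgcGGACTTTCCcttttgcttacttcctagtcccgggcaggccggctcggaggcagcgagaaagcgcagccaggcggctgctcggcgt
The first capitals are the E-box letters at 95 to 90 bases before the start, which 7.2% of all windows hold. The others are NF-kappaB-like letters at -77 to -69 and at -35 to -27, held by 20.0% of all windows. A GC box, held by 44.9% of all windows and by 5 of the 6 members, overlaps the first of these matches. Besides TLR2, the window of TLR5 holds the NF-kappaB-like letters, giving 2 of 6 members. The RefSeq start of TLR2 lies 210 bases inside the 5′ end of the deposited gene model, so the capitals fall within that model.

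In attached culture TLR2 stood at 2.38 TPM in NCI-H2009, 2.62 TPM in LC-2/ad, 11.7 TPM in NCI-H2228 and 7.01 TPM in HCC4006. At day 1 the lines held 2.18, 3.49, 84.6 and 9.01 TPM. At day 7 they held 13.4, 4.79, 21.2 and 28.3 TPM. NCI-H2228 stood alone at day 1, with 84.6 TPM against no more than 9.01 TPM in the other lines, and the ranges of the 3 states overlapped. In NCI-H2009 and HCC4006 the level moved mainly between day 1 and day 7, and LC-2/ad varied least.

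The day 1 difference of TLR2 was 1.14 (SE 0.62), made up of 2.98 in NCI-H2228 and 0.15 to 0.50 in the other 3 lines. In NCI-H2009 this was 0.21 in log2 CPM, which was scaled by TMM and took a prior count of 2. Its plain CPM was 0.968 times the attached one and its TPM 0.919 times, so the sign differed between the scales. At day 7 it was 1.62 ± 0.60 and positive in 4 of 4 lines, with 2.19 in NCI-H2009, 2.16 in HCC4006, 0.84 in NCI-H2228 and 0.65 in LC-2/ad. It did not pass (edgeR adjusted p = 0.242). Day 7 minus day 1, TLR2 was 1.98 in NCI-H2009, 1.65 in HCC4006, 0.50 in LC-2/ad and -2.14 in NCI-H2228, with a common estimate of 0.48 (edgeR adjusted p = 0.81). With no replicate inside a line, the contrast between NCI-H2228 and the others was not tested.

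TLR5, the flagellin receptor, lies on the minus strand of chromosome 1 (ENSG00000187554.14, chr1:223109404-223143248). Attached libraries held 0.151 TPM in NCI-H2009, 1.51 TPM in LC-2/ad, 2.87 TPM in NCI-H2228 and 1.19 TPM in HCC4006. At day 1 the lines held 0.768, 4.70, 6.68 and 1.70 TPM, and at day 7 2.29, 3.84, 3.05 and 1.97 TPM. Each line was higher at day 1 than attached, and NCI-H2228 returned almost to its attached level at day 7. The ranges of the states overlapped. The day 1 difference of TLR5 was 1.29 (SE 0.55), from 0.94 in NCI-H2009 to 1.43 in NCI-H2228. At day 7 it was 2.01 ± 0.59, the largest day 7 estimate among the tested members, with 3.30 in NCI-H2009, 2.29 in HCC4006, 1.60 in LC-2/ad and -0.18 in NCI-H2228 (edgeR adjusted p = 0.166). From day 1 to day 7 it was 0.71 (edgeR adjusted p = 0.675).

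The size of change of TLR5 depended on the scale. In NCI-H2009 the ratio of day 1 to attached was 5.09 in TPM and 1.71 in CPM. In HCC4006 the ratio of day 7 to attached was 1.66 in TPM and 5.01 in CPM. TPM divides by an estimated transcript length that can differ between libraries, whereas CPM does not, and the reason for the gap in TLR5 was not tested. On log2(TPM + 1) the day 7 estimate was 0.74, and from day 1 to day 7 it turned to -0.030.

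**Figure D2:**
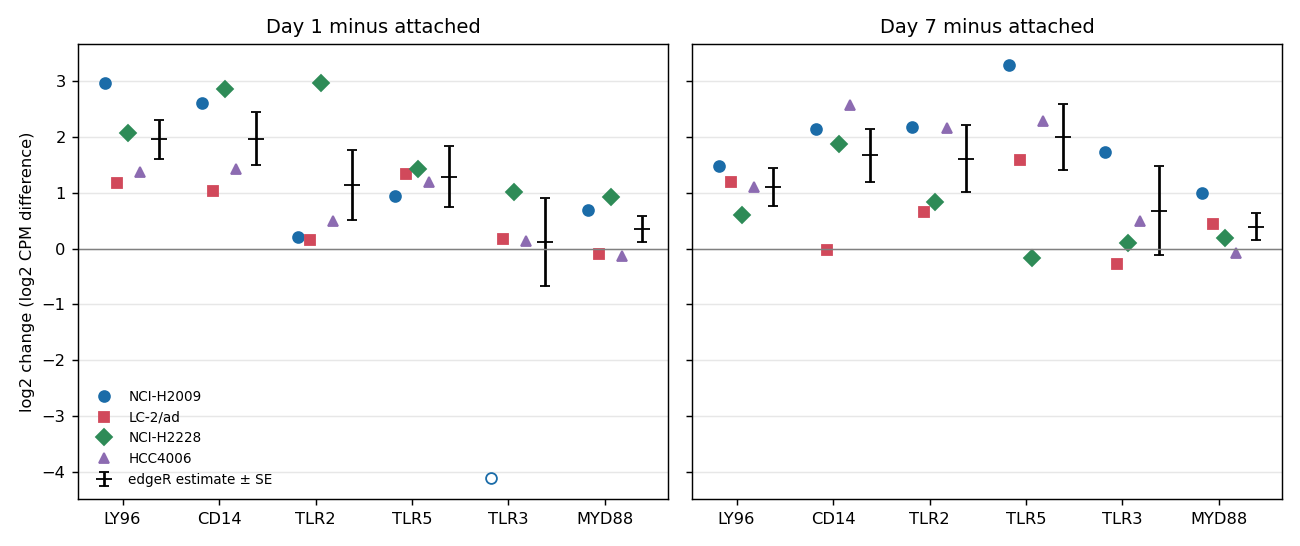
Change of the 6 tested genes from attached culture at day 1 (left) and day 7 (right), in log2 units on the vertical axis, with 1 coloured point per cell line (difference of log2 CPM, prior count 2) and the black bar giving the edgeR estimate ± SE over the 4 lines. All 6 estimates lie above 0 at both times; the open circle of TLR3 is NCI-H2009 at day 1, where TLR3 was at 0 counts and the plotted size depends on the prior count.

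TLR3, the endosomal receptor for double-stranded RNA, lies on the plus strand of chromosome 4 (ENSG00000164342.13, chr4:186069155-186088073). Its RefSeq promoter window is chr4:186068906-186069205 on the plus strand, shown with that of MYD88 because both hold the interferon response letters, which 3.57% of all windows hold.
TLR3: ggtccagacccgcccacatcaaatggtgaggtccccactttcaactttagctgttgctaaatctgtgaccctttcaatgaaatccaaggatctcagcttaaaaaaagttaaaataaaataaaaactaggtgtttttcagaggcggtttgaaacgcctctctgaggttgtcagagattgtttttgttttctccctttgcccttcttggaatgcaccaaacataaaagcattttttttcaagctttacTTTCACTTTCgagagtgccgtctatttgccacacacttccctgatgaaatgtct
In TLR3 the letters are read on the opposite strand, at -4 to 6 around the start, which counts as 1, and the print shows the strand of the gene.

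TLR3 levels set LC-2/ad and NCI-H2009 apart from the other lines in every state. LC-2/ad held 23.1 TPM attached, 23.8 TPM at day 1 and 20.5 TPM at day 7. NCI-H2228 held 6.05, 12.3 and 7.92 TPM, and HCC4006 held 4.61, 4.75 and 6.18 TPM. NCI-H2009 held 0.669 TPM attached, none at day 1 and 3.02 TPM at day 7, from 34, 0 and 130 counts. The 3 libraries of LC-2/ad lay above all others and the 3 of NCI-H2009 below all others. Against the limit that 3 counts set in the NCI-H2009 day 1 library, TLR3 in CPM was at least 14.1-fold higher attached and at least 50.4-fold higher at day 7. In that library 43 genes were at 0 that had 30 or more counts in both other states of the line, as against 40 in attached NCI-H2009 and 3 to 12 in the other 10 libraries, so such gaps were not particular to TLR3 there. The part of these gaps in the TLR3 value was not tested.

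The day 1 difference of TLR3 was 0.12 (SE 0.79), with 1.01 in NCI-H2228, 0.18 in LC-2/ad and 0.14 in HCC4006. In NCI-H2009 it was -4.12, a size that depends on the prior count, since TLR3 was at 0 counts there at day 1. The common day 7 difference of TLR3 was 0.68 ± 0.80 (edgeR adjusted p = 0.72), positive in 3 of 4 lines and -0.27 in LC-2/ad. From day 1 to day 7 it was 0.56 ± 0.84 (edgeR adjusted p = 0.832). Without the NCI-H2009 day 1 library this value was -0.15.

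MYD88, the adaptor shared by TLR2, TLR4, TLR5 and the IL-1 receptor family, lies on the plus strand of chromosome 3 (ENSG00000172936.16, chr3:38138478-38143022). Its RefSeq promoter window is chr3:38138411-38138710 on the plus strand.
MYD88: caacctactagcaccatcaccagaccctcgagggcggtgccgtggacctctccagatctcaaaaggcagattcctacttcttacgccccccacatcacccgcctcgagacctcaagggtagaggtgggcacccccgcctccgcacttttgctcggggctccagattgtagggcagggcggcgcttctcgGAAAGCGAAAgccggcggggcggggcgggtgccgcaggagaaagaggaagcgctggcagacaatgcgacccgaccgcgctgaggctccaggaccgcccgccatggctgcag
Here the interferon response letters lie on the gene's own strand, 61 to 52 bases before the start. The RefSeq start of MYD88 lies 183 bases inside the 5′ end of the deposited gene model, so these letters fall within that model.

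MYD88 was well expressed in every library. Attached libraries held 33.5 TPM in NCI-H2009, 47.5 TPM in LC-2/ad, 20.5 TPM in NCI-H2228 and 50.1 TPM in HCC4006. At day 1 the lines held 41.35, 44.8, 35.8 and 42.2 TPM, and at day 7 80.4, 68.3, 23.4 and 43.9 TPM. NCI-H2009 and LC-2/ad were highest at day 7 and NCI-H2228 at day 1, while HCC4006 was highest attached. The common difference of MYD88 from attached was 0.35 (SE 0.24) at day 1 and 0.39 ± 0.24 at day 7 (edgeR adjusted p = 0.456). From day 1 to day 7 it was 0.04 (edgeR adjusted p = 0.963).

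Counted over the set, the 6 tested members had positive estimates at day 1 and at day 7, with medians of 1.22 and 1.36 on the log2 scale. The medians over all genes tested were 0.01 and 0.03. Nothing is read from the day 1 median, since that contrast helped to choose the set, and the day 7 median shares the attached libraries with it. At day 7 against attached, edgeR called 0 of 6 members at an adjusted p of 0.05, where it called 0.103% of all genes (18 of 17395, 1 higher and 17 lower). LY96, CD14, TLR2 and TLR5 were at an unadjusted p below 0.05, that is 4 of 6, as were 15.7% of all genes. DESeq2 called 3 of the 6 higher at day 7, LY96 (adjusted p = 0.0334), CD14 (0.011) and TLR5 (0.00904), where it called 7.19% of all genes with an adjusted p, and limma on log2(TPM + 1) called 0 of 6. Between the detached times edgeR called 0 of 6 members, 1 of them (LY96) at an unadjusted p below 0.05. It called 0% of all genes in this contrast, 1702 being below 0.05 unadjusted, and the member median was 0.26. Nothing is read from this contrast for LY96 and CD14, because their day 1 levels helped to choose the set. DESeq2 called 0 of 6 there too, beside 1.25% of all genes, and limma on log2(TPM + 1) 0 of 6.

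Levels of the tested members differed among the cell lines. A test of differences among the 4 lines, with the 3 states of a line as its repeats, called 6 of 6 tested members, but it also called 61.2% of all genes, so the count is not particular to the set. CD14 had the smallest edgeR adjusted p of the members, 0.000308, followed by TLR2 (0.00747), TLR5 (0.0133), TLR3 (0.0135), LY96 (0.0163) and MYD88 (0.0454). The call of CD14 held under all 15 alternatives run, with an adjusted p of no more than 0.0133. That of MYD88 was lost without NCI-H2228 (0.661) or without LC-2/ad (0.0828). LY96 lost the call without LC-2/ad (0.1) or without NCI-H2228 (0.052), and TLR3 without LC-2/ad (0.0822).

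By mean TPM over the 3 states, CD14 was highest in HCC4006 at 49.5 ± 38.1 TPM (SD, n = 3 states), followed by NCI-H2228 at 12.4 ± 9.4 TPM, LC-2/ad at 9.40 ± 4.27 TPM and NCI-H2009 at 1.01 ± 0.73 TPM. The ranges of HCC4006 and NCI-H2228 overlapped, as did those of NCI-H2228 and LC-2/ad, and NCI-H2009 lay apart below them. TLR3 was ordered LC-2/ad at 22.5 ± 1.8 TPM, NCI-H2228 at 8.77 ± 3.23 TPM, HCC4006 at 5.18 ± 0.87 TPM and NCI-H2009 at 1.23 ± 1.59 TPM, where only the middle pair overlapped. MYD88 was lowest in NCI-H2228 at 26.5 ± 8.1 TPM, apart from the other 3 lines, which overlapped at means of 45.4 to 53.5 TPM. For LY96, TLR2 and TLR5 the first place went to NCI-H2228, at 72.1 ± 52.3, 39.2 ± 39.6 and 4.199 ± 2.147 TPM, and neighbouring lines in the order overlapped throughout.

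Of the 8 genes, 4 had their highest level of all libraries in NCI-H2228 at day 1, namely LY96, TLR2, TLR5 and LBP. Among tested genes, 3 of the 6 members were highest in that library, LBP not being tested, beside 6.98% of all genes. Nothing is read from this count, because day 1 levels helped to choose the set. The other 4 of the 8 genes peaked elsewhere, CD14 in HCC4006 at day 7, MYD88 in NCI-H2009 at day 7, TLR3 in LC-2/ad at day 1 and TLR4 in attached LC-2/ad. Within a line, members were also counted where log2 CPM lay more than 1 above attached. At day 7 this held for 6 of the 6 tested members in NCI-H2009, beside 18.4% of all genes, and for 4 of 6 in HCC4006, beside 9.53%. It held for 2 of 6 in LC-2/ad, beside 10.2%, and for 1 of 6 in NCI-H2228, beside 8.66%. In NCI-H2009 MYD88 lay only just above this cut, at 1.004, and CD14 and TLR5 started from 8 and 16 counts attached. The day 1 count was 5 of 6 in NCI-H2228, beside 14.8%, and 3 of 6 in LC-2/ad, beside 8.91%. It was 3 of 6 in HCC4006, beside 7.00%, and 2 of 6 in NCI-H2009, beside 18.3%. Nothing is read from the day 1 counts, because day 1 against attached helped to choose the set, and the day 7 counts share its attached libraries.

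The full set of toll-like receptor transcripts, TLR1 to TLR10, gave each line a different make-up. Their summed level in NCI-H2009 was 4.17 TPM attached, 5.25 TPM at day 1 and 24.0 TPM at day 7. In NCI-H2228 it was 23.8, 112 and 39.1 TPM, and in HCC4006 13.4, 16.0 and 36.8 TPM. LC-2/ad held 38.2, 54.7 and 42.8 TPM. The day of the largest sum was day 7 in NCI-H2009 and HCC4006 and day 1 in NCI-H2228 and LC-2/ad.

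TLR2 made up the largest share in 9 libraries, those of NCI-H2009, NCI-H2228 and HCC4006, at 41.6 to 77.0% of the sum. In LC-2/ad TLR3 led with 60.5% attached, 43.4% at day 1 and 47.9% at day 7, and TLR1, the partner of TLR2, came next with 25.7, 39.2 and 29.4%. TLR2 made up no more than 11.2% there. TLR1 was at 0 in the 3 libraries of HCC4006, where TLR6, the other partner of TLR2, stood at 0.431, 0.509 and 0.066 TPM. TLR4 made up at most 0.80% of the sum. TLR7, TLR8, TLR9 and TLR10, mostly receptors of immune cells for nucleic acids, reached no more than 0.33, 0.173, 0.126 and 0.167 TPM.

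**Figure D3:**
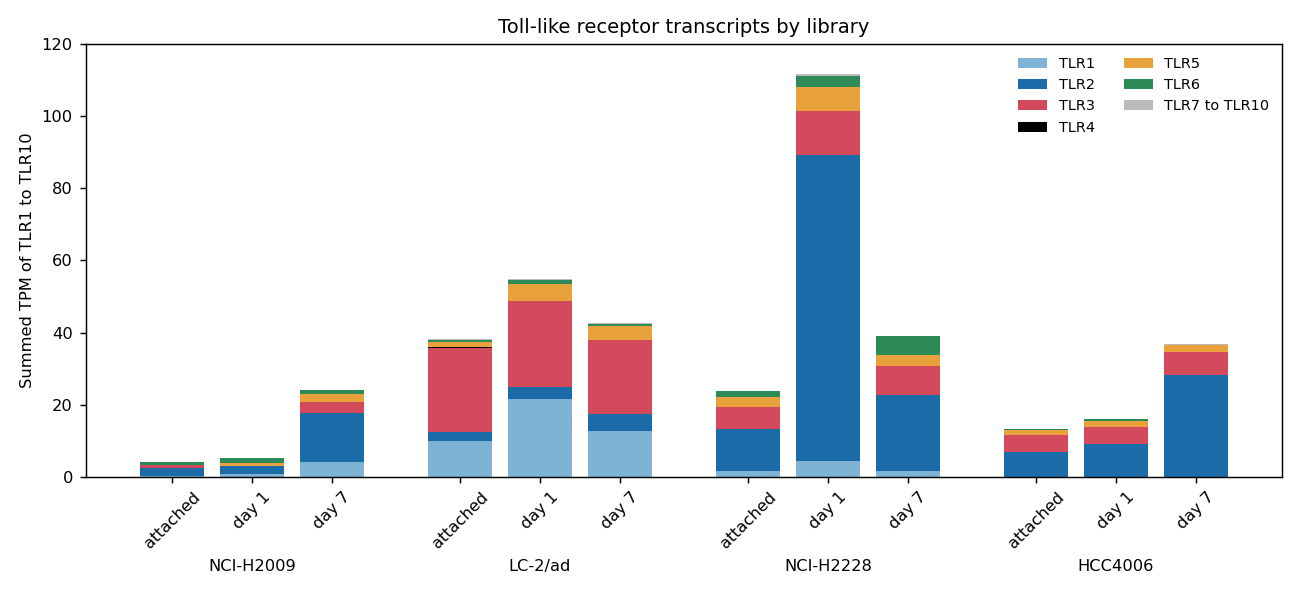
Summed TPM of TLR1 to TLR10 (vertical axis, linear from 0) in each of the 12 libraries, ordered by cell line and state, with each bar divided by receptor. TLR2 takes the largest part of the bars of NCI-H2009, NCI-H2228 and HCC4006 and reaches 84.6 TPM in NCI-H2228 at day 1, TLR3 leads in LC-2/ad, and TLR4 is barely visible.

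The wider pathway was taken as 9 lists of named genes, of which 91 genes passed the filter on low counts. edgeR called 0 of these 91 at day 1 and 0 at day 7 against attached, with 18 (19.8%) and 21 (23.1%) at an unadjusted p below 0.05, beside 19.6% and 15.7% of all genes. DESeq2 called 8 of the 91 at day 1 and 10 at day 7, where it called 11% and 7.19% of all genes with an adjusted p, and limma on log2(TPM + 1) called 1 and 0. At day 1 DESeq2 called PELI1, NFKBIA, S100A8, CCL20, ICAM1, SOD2 and LCN2 higher and HMGB1 lower. At day 7 it called TIRAP, SARM1, PELI1, NFKBIA, SIGIRR, SFTPA2, CCL20, LCN2 and IL1R1 higher and HMGB1 lower. The limma call at day 1 was HMGB1, lower. The genes described below are the 3 of each list with the smallest p at day 7, and none of them passed in edgeR.

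Among other toll-like receptors and their chaperones (8 tested), the median difference from attached was 0.53 at day 1 and 0.56 at day 7. UNC93B1, which carries TLR3 and other receptors to endosomes, stood at 79.3 ± 34.2 TPM attached and 132 ± 46 TPM at day 7 (SD, n = 4), a difference of 0.71 ± 0.26. TRIL, an accessory protein of TLR4, was at 0.504 ± 0.535 and 1.16 ± 0.93 TPM, and TLR1 at 2.91 ± 4.67 and 4.58 ± 5.61 TPM, most of it in LC-2/ad. The SD of both exceeded or approached the mean in these states.

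Adaptors and proximal kinases (20 tested) had medians of -0.12 and 0.16, near those of all genes. SARM1, a TIR-domain protein that degrades NAD, stood at 1.13 ± 1.14 TPM attached and 2.74 ± 0.51 TPM at day 7. PELI1, a ubiquitin ligase of the IRAK complex, stood at 7.59 ± 1.29 TPM attached, 14.9 ± 3.3 TPM at day 1 and 19.3 ± 15.1 TPM at day 7, the last spread coming from 41.3 TPM in NCI-H2009. TIRAP, which bridges TLR2 and TLR4 to MYD88, stood at 10.3 ± 3.7 TPM attached and 15.9 ± 4.0 TPM at day 7. DESeq2 called these 3 higher at day 7, and PELI1 at day 1.

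NF-kappaB and IRF factors (8 tested) had medians of 0.19 and 0.37. IRF7 stood at 24.2 ± 10.8 TPM attached and 37.1 ± 11.1 TPM at day 7, RELB at 22.7 ± 20.1 and 39.5 ± 23.4 TPM, and REL at 1.61 ± 0.26 and 3.609 ± 3.003 TPM. Negative regulators (12 tested) had medians of 0.38 and 0.20. NFKBIA, which codes for the NF-kappaB inhibitor that NF-kappaB itself induces, stood at 131 ± 30 TPM attached, 259 ± 85 TPM at day 1 and 285 ± 108 TPM at day 7, with a day 7 difference of 1.01 ± 0.31 in 4 of 4 lines (edgeR adjusted p = 0.179). SIGIRR, a receptor that dampens TLR and IL-1 signalling, stood at 53.3 ± 17.3 and 82.9 ± 25.9 TPM attached and at day 7 (edgeR adjusted p = 0.139), and TOLLIP at 44.7 ± 6.0 and 57.7 ± 20.1 TPM.

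Of the 16 tested NF-kappaB outputs, 13 were above 0 at day 1 and 14 at day 7, with medians of 0.84 and 1.16. LCN2, a siderophore-binding protein of airway epithelium, stood at 233 ± 164 TPM attached, 787 ± 725 TPM at day 1 and 1399 ± 636 TPM at day 7, and was higher at day 7 in 4 of 4 lines (2.73 ± 0.63, edgeR adjusted p = 0.128). The chemokine CCL20 stood at 15.9, 187 and 31.5 TPM in NCI-H2228 attached, at day 1 and at day 7, and did not exceed 10.7 TPM in the other lines. ICAM1 stood at 105 ± 137 TPM attached and 204 ± 200 TPM at day 7. By line, log2 CPM at day 7 lay more than 1 above attached for 13 of the 16 in NCI-H2009 (18.4% of all genes) and for 11 in LC-2/ad (10.2% of all genes). It did so for 4 in HCC4006 (9.53%) and for 3 in NCI-H2228 (8.66%).

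The NCI-H2228 day 1 library held the highest level of 6 of these 16 outputs (37.5%), beside 6.98% of all genes. CXCL1 stood there at 462 TPM, against 133 TPM attached and 89.2 TPM at day 7. SOD2, the mitochondrial superoxide dismutase, stood at 2250 TPM there, against 211 and 498 TPM. S100A8, an endogenous TLR4 ligand of another list, stood at 672 TPM, against 67.4 and 36.9 TPM. These 3 were chosen after their values were seen. Of the 16 outputs, 10 were above attached in this library in log2 CPM. Among those below attached were CXCL8 (-0.76), CXCL3 (-0.66) and CSF2 (-0.99). LY96, TLR2, TLR5 and LBP also peaked in this library, which has no replicate. Nothing is read from the shared peak, since day 1 levels helped to choose the set.

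Other lipopolysaccharide-handling proteins and endogenous ligands (10 tested) had medians of 0.07 and 0.16. HMGB1, a chromatin protein that signals through TLR4 when released, was lower in 4 of 4 lines, at 817 ± 290 TPM attached, 395 ± 172 TPM at day 1 and 508 ± 167 TPM at day 7 (edgeR adjusted p = 0.0573 and 0.134). S100A9 stood at 472 ± 627, 1810 ± 2614 and 780 ± 1004 TPM, and the surfactant protein SFTPA2 at 0.182 ± 0.322 and 3.63 ± 6.43 TPM attached and at day 7, with 13.3 TPM in HCC4006 at day 7.

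TRIF and interferon outputs (6 tested), downstream of TLR3, had medians of 0.22 and -0.12. IFIT1 stood at 7.27 ± 5.54 TPM attached and 6.07 ± 7.00 TPM at day 7, OAS1 at 27.8 ± 23.5 and 64.6 ± 46.8 TPM, and MX1 at 28.4 ± 35.4 and 40.4 ± 31.9 TPM. IL-1 family receptors that share MYD88 (4 tested) had medians of 0.49 and 0.97, with IL1R1 at 3.53 ± 3.45 and 6.78 ± 1.74 TPM, IL18R1 at 1.03 ± 1.19 and 5.34 ± 5.58 TPM, and IL1RAP at 17.5 ± 12.5 and 14.3 ± 5.9 TPM. Cytosolic sensors of nucleic acid and peptidoglycan (7 tested) had medians of 0.07 and -0.02. CGAS stood at 14.7 ± 9.9 TPM attached and 9.89 ± 7.13 TPM at day 7, lower in 4 of 4 lines, STING1 at 81.1 ± 58.7 and 103 ± 54 TPM, and NOD1 at 5.23 ± 3.85 and 6.76 ± 4.44 TPM.

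**Figure D4:**
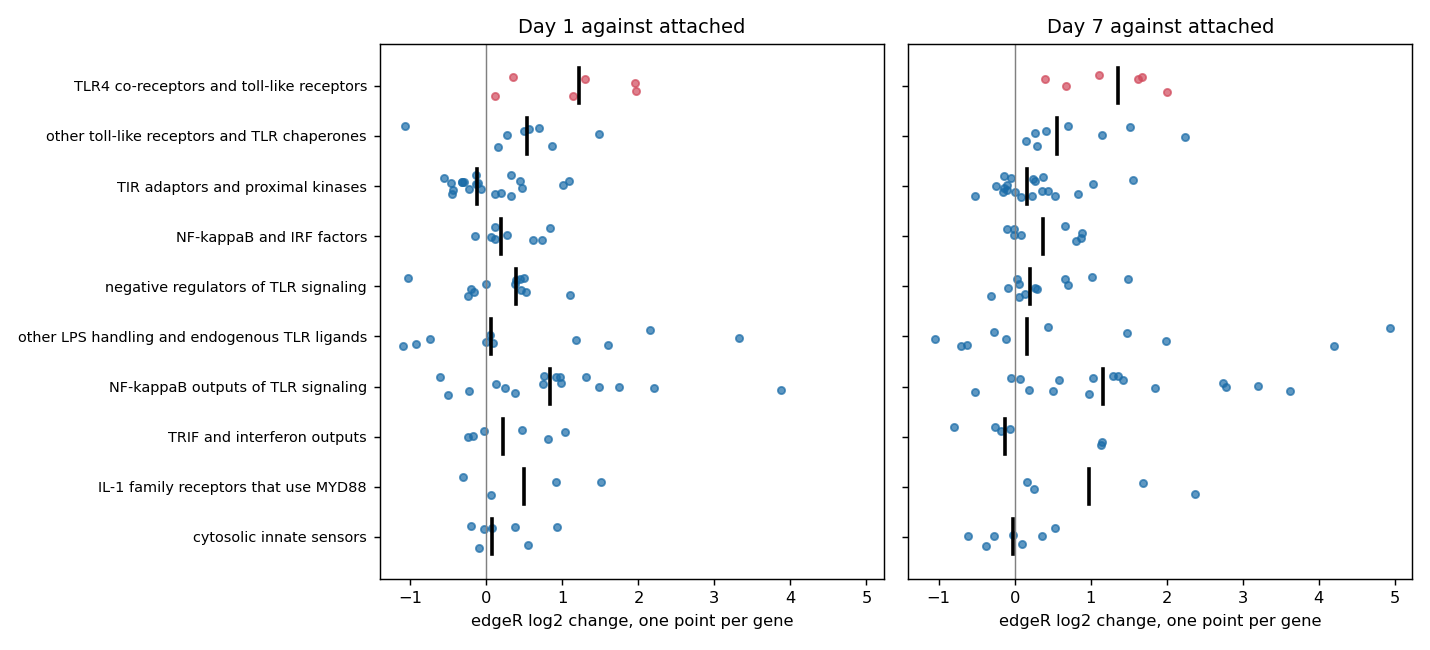
edgeR log2 change against attached (horizontal axis) at day 1 (left) and day 7 (right), with 1 point per tested gene, the 6 tested members in red and 9 further lists in blue; the black bar is the median of a list. The member medians are 1.22 and 1.36, the NF-kappaB outputs follow with 0.84 and 1.16 at day 1 and day 7, and adaptors and cytosolic sensors lie near 0.

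Genes with the most similar course were ranked by Pearson's r of log2(TPM + 1), centred on the mean of each line, over the 12 libraries and 9936 protein-coding genes. These r values describe shared movement of libraries that also share line, depth and processing, and carry no test. LY96 was followed most closely by CNPY2 (r = 0.978), MAGIX (0.971) and MYDGF (0.969), and CD14 by CLDN10 (0.960), SHLD1 (0.942) and C14orf119 (0.939). For TLR2 the nearest were ZNF277 (0.955), RAPGEF5 (0.944) and CADPS2 (0.942), and for TLR3 TMEM123 (0.981), IFI16 (0.972) and IQANK1 (0.971). MYD88 was followed by MAF1 (0.968), CXCL1 (0.965) and ARAF (0.965). Among the 5 members compared, those with a mean of at least 5 TPM, the highest r was between TLR2 and TLR3 (0.817), then TLR2 and CD14 (0.768), TLR2 and MYD88 (0.762), TLR3 and MYD88 (0.713) and LY96 and CD14 (0.709). The lowest was between LY96 and TLR3 (0.099). On this scale TLR3 moved most in NCI-H2009, at 0.669 TPM attached, 0 at day 1 and 3.02 TPM at day 7. The r values of TLR3 therefore lean on that line and on its day 1 library, and were not computed without them.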

How the data were processed

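RNA was sequenced from 4 cell lines in 3 states (12 libraries, prepared per the labels' protocols with SMART-Seq v4 PLUS), with the build GRCh38 per the submitters' processing notes. Aligner, quantifier, annotation release and strandedness were not given in the sources used here. Per the file headers, the authors deposited TPM (length-scaled) and estimated counts (not normalized) for 60715 genes. Rounded estimated counts entered edgeR 4.0.16 (R 4.3.3), where filterByExpr by state left 17395 genes, with TMM scaling and a robust quasi-likelihood model of state plus cell line (6 residual degrees of freedom, coefficient of variation 38.7%). The Benjamini-Hochberg adjusted p covers all tested genes and has to be below 0.05. SE is the fold change divided by the root of F and restates the test. Within a line, log2 CPM (scaled by TMM, prior count 2) was subtracted between states. Ratios given in CPM are plain counts over library size, without TMM. The replicate block is the cell line, shared by the states. The line test drops the 3 line terms.

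The members and lists were chosen with earlier results of these data known. Named genes are the members, the genes of a list that passed or else its 3 smallest p at day 7, and the 3 protein-coding genes most correlated with a member, for means of at least 5 TPM. Alternatives used DESeq2 1.42.0, limma 3.58.1 on log2(TPM + 1) and log2(TPM + 0.1), other filters, no block, 2 states only, and left-out lines and libraries. Limits set by 3 counts cover counting error only. Values after ± are the SE for log2 differences and the SD over lines or states for TPM. RefSeq promoter windows (GRCh38.p14) matched 6 of 8 members. The deposited coordinates overlap those of GENCODE 29 for 8 of 8 members and equal them for 2. RIGI was found as DDX58. Where depth is named, it is the sum of estimated counts of a library.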

Additional observations from a re-analysis of the deposited data

Results flagged for a closer look

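In each state the highest and the lowest of the 4 lines were compared with the nearest other line, and a value was listed where that gap took more of the whole range of the 4 than the 95% limit of Dixon's ratio. That limit assumes normally distributed values, while the ratio was taken on TPM without logs, so no rate of listing by chance is given. CD14 in HCC4006 at day 7 stood at 91.1 TPM, the next line at 11.9 TPM, and the gap took 0.884 of the range. TLR2 in NCI-H2228 at day 1 stood at 84.6 TPM, the next line at 9.01 TPM, with a ratio of 0.917. LBP in NCI-H2228 stood at 1.93 TPM attached, 24.4 TPM at day 1 and 2.52 TPM at day 7 with the other 3 lines at 0, so that each state was listed. With those lines at 0 the ratio is 1.0 for any level above 0, so the listing says nothing about the size of the LBP level. These 5 values come from libraries without a replicate of their own line and state.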

How the results depend on the processing

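Of 85 genes called at day 1 against attached, 18 at day 7 and 0 between the detached times, the DESeq2 test gave 1695, 1153 and 192, DESeq2 size factors in edgeR 2 and 6 in the first pair, and no filter 265, 114 and 6. A TPM filter gave 29 at day 7, limma on log2(TPM + 1) 223 at day 1, and limma on log2(TPM + 0.1) 234 at day 1 and 1 between the detached times. With only the 2 states compared the counts were 0 at day 1 and 1 at day 7. Without the replicate block 0 genes were called at both. Leaving out each line in turn gave 0 at day 1 and 0 to 1 at day 7. Leaving out the NCI-H2009 day 1 library gave 0 and 69, and the NCI-H2228 day 1 library 0 and 1; these library choices were made after seeing the data. Of genes differing among lines, 10649 in all, 5866 were called without the attached state and 6868 without day 7. The day 1 call of LY96 (edgeR adjusted p = 0.0496) was lost with DESeq2 size factors (0.0523), without the replicate block (0.95), with only 2 states (0.134), over left-out lines (0.118 to 0.23) and without the NCI-H2009 or NCI-H2228 day 1 library (0.0835 and 0.167), and held in the other 5 alternatives. Whether held or lost, that call is no test of LY96, since day 1 helped to choose it. At day 1 the estimate of LY96 lay between 1.60 and 2.18 and that of CD14 between 1.40 and 2.44 over 14 alternatives. At day 7 LY96 stayed above 0 in 14 of 14 (1.01 to 1.25), and with DESeq2 LY96 at 1.11 and CD14 at 1.70 passed. From day 1 to day 7 signs turned without the replicate block for CD14 (0.47), TLR2 (-0.71), TLR3 (-0.36) and TLR5 (-0.22), and for TLR3 at day 7 against attached (-0.0017). They turned for TLR5 in limma on log2(TPM + 1) (-0.030), for TLR3 without the NCI-H2009 day 1 library (-0.15) and for CD14 without the NCI-H2228 day 1 library (0.039). Over left-out lines the range from day 1 to day 7 was -0.83 to 0.0038 for CD14, -0.098 to 1.45 for TLR2, -0.34 to 1.21 for TLR3 and -0.12 to 0.32 for MYD88. The cause was not tested, except that left-out lines and states leave fewer samples. Members' line calls were lost in some alternatives: LY96 and MYD88 in 4 of 15, TLR3 in 3, TLR5 in 2 and TLR2 in 1. TLR4 at 85 counts is limited by depth. For LBP in the 9 libraries at 0, the limit of 3 counts was 0.0544 to 0.0732 TPM, below the 1.93 TPM of attached NCI-H2228.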
